A study of Mus musculus with 10 samples.

Results

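The autophagy core genes are 10 genes chosen by symbol, namely Ulk1, Rb1cc1, Becn1, Atg5, Map1lc3a, Map1lc3b, Gabarap, Gabarapl1, Gabarapl2 and Sqstm1. All 10 were found among the 48709 genes of the count tables, and all 10 were among the 16884 genes with enough counts to be tested. RNA was sequenced from mouse hippocampal neurons in primary culture, dosed at day 10 in vitro with lipid nanoparticles and collected after 48 h. An antisense oligonucleotide against miR-409-5p (called anti-miR-409-5p, n = 4 libraries), a second against miR-501-3p (called anti-miR-501-3p, n = 4) or scramble RNA (control, n = 2) was the cargo. All groups therefore received nanoparticles with a nucleic acid cargo, and a culture without nanoparticles was not analysed here. The study's title describes both microRNAs as exercise-induced and links their silencing to neuronal homeostasis. No label gives a mouse strain or tells whether replicate libraries stem from separate cultures, so the p-values below measure the spread between these libraries.

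Autophagy encloses cytoplasmic cargo in a double membrane, the autophagosome, and delivers it to the lysosome. The ULK1 kinase complex starts the process, a lipid kinase complex with Beclin 1 marks the site, and a conjugation system with ATG5 attaches LC3 and GABARAP proteins to the growing membrane. Cargo receptors such as p62, the product of Sqstm1, bind ubiquitinated cargo and LC3 at once and are degraded together with the cargo. Neurons do not divide and rely on this route to clear damaged proteins and organelles from long axons. Much of the pathway is controlled on the protein level, by phosphorylation, lipid conjugation and turnover, which RNA counts do not measure.

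The inhibited microRNAs are shown with their seed, bases 2 to 8 from the 5′ end, in capitals, because a seed match is what a direct target would carry. The sequences are RefSeq's for build GRCm38.p6, and the microRNAs lie at chr12:109743172-109743194 on the plus strand and chrX:7241270-7241291 on the minus strand.
miR-409-5p: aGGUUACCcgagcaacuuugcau
miR-501-3p: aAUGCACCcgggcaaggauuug
For each gene, its longest annotated 3′ UTR was searched on its own strand for GGTAACC or, ending in A, GTAACCA in the case of miR-409-5p, and for GGTGCAT or, ending in A, GTGCATA in the case of miR-501-3p, where a longer match holds both of a pair. None of the 10 core genes held a match for miR-409-5p, a match found in 10.5% of 14225 tested protein-coding genes. For miR-501-3p 1 of 10 held a match, against 13.6% of those genes. The match lay in Sqstm1 on chromosome 11, starting at base 167 of a 3′ UTR of 1424 bases, and is in capitals here with 10 bases on either side.
Sqstm1: agttttgaatGTGCATAtgctgacgcc
A match is a run of letters and was not tested as a binding site.

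Libraries held 22254788 to 32096808 counts under anti-miR-409-5p, 26441569 to 29871556 under anti-miR-501-3p and 27288613 to 29317799 in control. Levels are given as CPM, counts scaled to a common library size, after TMM scaling, a scaling that balances the libraries over most genes. Markers of neurons summed to 6086 to 6296 CPM under anti-miR-409-5p, 5962 to 6248 CPM under anti-miR-501-3p and 5921 to 5961 CPM in control, with no marker at 0 in all libraries of a group. Of these 7 neuron markers, 3 rose and 4 fell under anti-miR-409-5p, and 2 rose and 4 fell under anti-miR-501-3p. Astrocyte markers summed to 1787 to 1831, 1740 to 1777 and 1721 to 1752 CPM in the same groups, so the cultures held astrocyte RNA throughout. Of the 5 astrocyte markers, 3 rose and 1 fell under anti-miR-409-5p, and 2 rose and 1 fell under anti-miR-501-3p. Microglial markers summed to 13.4 to 15.02, 14.3 to 17.9 and 15.05 to 15.8 CPM. Oligodendrocyte lineage markers summed to 129.6 to 163.9, 99.5 to 164.2 and 125.9 to 201.1 CPM. Markers of endothelial, mural and fibroblast cells came to 118.6 to 148.1, 150.4 to 174.6 and 127.1 to 175.5 CPM. Those of proliferating cells came to 76.6 to 101.4, 53.0 to 86.6 and 62.9 to 94.7 CPM. Of the oligodendrocyte lineage markers 1 rose under anti-miR-501-3p. Of the endothelial, mural and fibroblast markers 1 fell under anti-miR-409-5p and 1 rose under anti-miR-501-3p. For microglia and proliferating cells 0 tested markers were called. All marker calls are against control at an edgeR adjusted p under 0.05, which 27.8% and 33% of all tested genes passed. Control replicates 1 and 2 differed in Olig2 (77.0 and 45.4 CPM), Mki67 (46.7 and 29.8) and Col1a1 (71.0 and 105.5). Fewer cells of a type and less RNA per cell cannot be told apart in such bulk samples, and the part of these markers in the results below was not tested. Mitochondrial genes took 3.40 to 3.80% of counts under anti-miR-409-5p and 3.33 to 3.95% under anti-miR-501-3p, against 2.59 to 2.78% in control, without overlap, and the part of this share in the results was not tested either. Counts also followed the GC content of transcripts differently between groups. For each library, the slope of a gene's log2 level (relative to its average across libraries) on GC content, per 10 points, ran between -0.105 and 0.037 under anti-miR-409-5p, between -0.127 and 0.0085 under anti-miR-501-3p and between 0.197 and 0.263 in control. Comparisons with control were therefore repeated in a fit that takes each library's own dependence on GC content and transcript length into account as an offset, called the GC-adjusted fit below.

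Against control, 4 of 10 core genes changed under anti-miR-409-5p at a Benjamini-Hochberg adjusted p under 0.05 in edgeR's quasi-likelihood test, while 27.8% of all tested genes were called. Rb1cc1 rose, and Ulk1, Gabarap and Sqstm1 fell. Under anti-miR-501-3p these 4 genes moved in the same directions and Gabarapl2 also rose, which makes 5 of 10 where 33% of all tested genes were called. Becn1, Atg5, Map1lc3a, Map1lc3b and Gabarapl1 passed in neither comparison. Both comparisons use the same 2 control libraries. CPM values did not overlap between the groups for 6 of 10 core genes under anti-miR-409-5p (48% of all tested genes) and for 8 of 10 under anti-miR-501-3p (49.9%). With 10 genes, these counts are read only beside those shares. The median log2 fold change of the core genes was -0.014 under anti-miR-409-5p and -0.022 under anti-miR-501-3p, beside -0.012 over all tested genes in both comparisons.

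**Figure D1:**
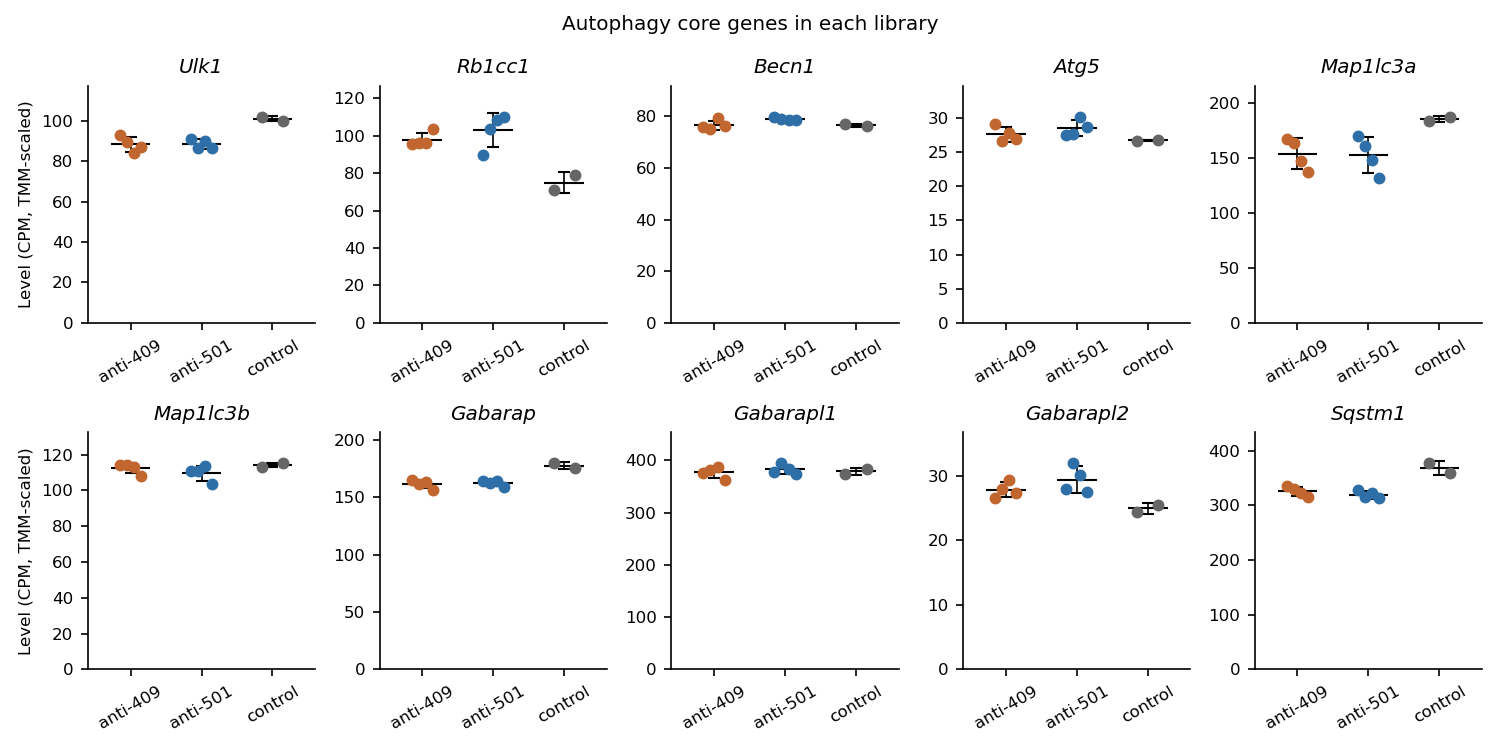
Level of each core gene in every library in TMM-scaled CPM, with a separate vertical scale for each gene starting at 0. Points are libraries, lines are group means and bars are SD (n = 4, 4 and 2). Rb1cc1 lies higher in all 8 anti-miR libraries than in both controls, and Ulk1, Gabarap and Sqstm1 lie lower.

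Ulk1 encodes the kinase that starts autophagosome formation and receives the signals of nutrient state. It measured 93.2, 89.5, 84.3 and 87.3 CPM in the anti-miR-409-5p libraries (replicates 1 to 4, as in all lists below) and 91.1, 86.6, 90.3 and 86.7 CPM in the anti-miR-501-3p libraries, against 102 and 100.2 CPM in control replicates 1 and 2. All 8 anti-miR libraries lay below both controls. Its log2 fold change was -0.19 (SE 0.045, edgeR adjusted p = 0.0046) under anti-miR-409-5p and -0.19 (SE 0.044, edgeR adjusted p = 0.0036) under anti-miR-501-3p. After GC adjustment the values were -0.047 (edgeR adjusted p = 0.528) and -0.024 (edgeR adjusted p = 0.759). Without control replicate 1 the adjusted p in edgeR was 0.0997 and 0.0832.

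Rb1cc1 encodes FIP200, the scaffold that holds the ULK1 complex together. Its levels were 95.4, 96.2, 96.0 and 103 CPM in anti-miR-409-5p libraries, 89.8, 104, 109 and 110.0 CPM in anti-miR-501-3p libraries, and 70.8 and 78.8 CPM in control. This was the largest change among the core genes in both comparisons, with no overlap between either anti-miR group and control. The log2 fold change was 0.39 (SE 0.072, edgeR adjusted p = 0.0017) under anti-miR-409-5p, a fold of 1.31. It was 0.46 (SE 0.072, edgeR adjusted p = 3.5e-04) under anti-miR-501-3p, a fold of 1.38. Rb1cc1 was the only core gene that still passed in both comparisons without control replicate 1, at an edgeR adjusted p of 0.0406 and 0.0122. After GC adjustment it was -0.019 (edgeR adjusted p = 0.894) under anti-miR-409-5p and 0.0088 (edgeR adjusted p = 0.944) under anti-miR-501-3p. Of its 7558 windows of read length, 12.0% also occurred in other annotated genes. Of these windows, 641 were shared with Gm13961 in the same orientation, at 0 to 0.227 CPM. Another 264 were shared with the antisense gene 4732440D04Rik, at 3.45 to 7.50 CPM, and without strand such reads cannot be told apart. That antisense gene had log2 fold changes of 0.65 and 0.83 in the 2 comparisons. The part of shared reads in the rise of Rb1cc1 was not tested.

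Becn1 encodes Beclin 1, a subunit of the lipid kinase complex that marks the site of membrane growth. It had 75.7, 74.98, 79.1 and 76.3 CPM under anti-miR-409-5p and 79.8, 78.9, 78.6 and 78.4 CPM under anti-miR-501-3p, against 77.0 and 76.1 CPM in control. The anti-miR-409-5p libraries spanned the controls, and the 4 anti-miR-501-3p libraries lay just above them. The log2 fold change was -0.0015 with a 95% interval of -0.086 to 0.083 (edgeR adjusted p = 0.983) under anti-miR-409-5p. It was 0.044 with an interval of -0.040 to 0.13 (edgeR adjusted p = 0.435) under anti-miR-501-3p. With GC adjustment Becn1 passed as lower under anti-miR-409-5p, at -0.12 (SE 0.036, edgeR adjusted p = 0.0363). It did not pass there under anti-miR-501-3p, at -0.086 (edgeR adjusted p = 0.150). The call on Becn1 was lost with a replicate block in that fit (-0.11, edgeR adjusted p = 0.0508), without control replicate 1 or 2 (edgeR adjusted p = 0.363 and 0.0957), without anti-miR-409-5p replicate 2, 3 or 4 (0.0794, 0.0520 and 0.103) and without anti-miR-501-3p replicate 2 or 3 (0.0504 and 0.0503). Its reads are uncertain, since 45.7% of 4316 windows were shared with other genes. All of these were shared with the antisense gene Cntd1, which itself had 0.115 to 0.373 CPM.

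Atg5 encodes the protein that joins ATG12 and then helps to attach LC3 to lipid. It stood at 29.1, 26.7, 27.9 and 26.9 CPM under anti-miR-409-5p and at 27.5, 27.7, 30.2 and 28.6 CPM under anti-miR-501-3p, against 26.7 and 26.8 CPM in control. The lowest anti-miR-409-5p library fell between the controls, whereas all anti-miR-501-3p libraries were higher than both. The log2 fold change was 0.047 (95% interval -0.075 to 0.17, edgeR adjusted p = 0.594) under anti-miR-409-5p and 0.093 (-0.028 to 0.21, edgeR adjusted p = 0.236) under anti-miR-501-3p. In the GC-adjusted fit it was -0.059 and -0.032 (edgeR adjusted p = 0.643 and 0.797).

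The LC3 and GABARAP genes encode the small ubiquitin-like proteins that are attached to the membrane and hold both cargo receptors and fusion factors. Per kilobase of annotated exon, Gabarapl1 was the most abundant of the 10 core genes, at 187 ± 5.45 CPM per kilobase under anti-miR-409-5p (SD, n = 4), 190.2 ± 4.28 under anti-miR-501-3p (n = 4) and 188 ± 3.61 in control (n = 2). Map1lc3a followed with 131 ± 12.1, 129 ± 14.1 and 157 ± 2.18 CPM per kilobase in the same groups. Sqstm1 (97.1 ± 2.63, 95.3 ± 2.14 and 109.7 ± 3.69) and Gabarap (87.8 ± 1.97, 88.2 ± 1.36 and 96.3 ± 1.57) came next. Levels were far lower for Ulk1 (13.7, 13.7 and 15.6) and Map1lc3b (14.97, 14.6 and 15.2), for Atg5 (11.8, 12.1 and 11.4), Becn1 (10.8, 11.2 and 10.8) and Gabarapl2 (12.0, 12.6 and 10.7), and lowest for Rb1cc1 (6.65, 7.01 and 5.09). Atg5 and Gabarapl2 differed by less than their SDs under both anti-miRs, and the values of Becn1 and Gabarapl2 overlapped in control. The order of the lower genes, and of Sqstm1 and Gabarap under anti-miR-501-3p, depends on the length used. Per kilobase of the longest transcript, Map1lc3b had 27.2, 26.5 and 27.6 CPM and Becn1 17.5, 18.1 and 17.5 CPM in these groups, which moves Becn1 above Atg5. Rb1cc1, at 12.8, 13.5 and 9.83, then exceeded Atg5 (11.8, 12.1 and 11.4) under both anti-miRs and was lowest only in control. On this scale Map1lc3b exceeded Ulk1 (17.0, 17.0 and 19.4) in all 3 groups, while per kilobase of exon it did so under both anti-miRs and not in control.

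Map1lc3a encodes LC3A and had the widest spread within the anti-miR groups. It measured 168, 164, 147 and 137 CPM in anti-miR-409-5p libraries and 169.9, 161, 148 and 132 CPM in anti-miR-501-3p libraries, against 184 and 188 CPM in control. Every anti-miR library was below both controls. The log2 fold change was -0.27 (SE 0.10, edgeR adjusted p = 0.0821) under anti-miR-409-5p and -0.28 (SE 0.10, edgeR adjusted p = 0.0619) under anti-miR-501-3p, so neither passed in the fit of all 3 groups. Fits of only the groups compared called both (edgeR adjusted p = 0.0234 and 0.0478), and so did a fit with the replicate number as a block, at smaller changes of -0.16 and -0.17 (edgeR adjusted p = 4.3e-04 and 1.1e-04). DESeq2's Wald test called both too, at an adjusted p of 0.0112 and 0.0064, where it called 25% and 29.1% of all tested genes. The authors' deposited tables call Map1lc3a lower under anti-miR-409-5p (log2 fold change -0.26, adjusted p = 0.0017) and list -0.28 with an adjusted p of 0.0517 under anti-miR-501-3p. Within each anti-miR group the libraries ordered by Map1lc3a level were ordered alike by GC slope, with 0.037, -0.0082, -0.090 and -0.105 for the anti-miR-409-5p libraries and 0.0085, -0.085, -0.091 and -0.127 for the anti-miR-501-3p libraries. At 63.1% GC, Map1lc3a is the most GC-rich core gene. Its GC-adjusted log2 fold change was 0.017 (edgeR adjusted p = 0.913) and 0.033 (edgeR adjusted p = 0.773).

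Map1lc3b encodes LC3B, the form most used as an autophagosome marker. It had 114, 114, 113 and 108 CPM under anti-miR-409-5p and 111, 111, 114 and 104 CPM under anti-miR-501-3p, against 113 and 115 CPM in control. The groups overlapped in both comparisons. Its log2 fold change was -0.022 (95% interval -0.11 to 0.069, edgeR adjusted p = 0.756) under anti-miR-409-5p and -0.059 (-0.15 to 0.032, edgeR adjusted p = 0.320) under anti-miR-501-3p. After GC adjustment it was 0.036 and 0.012 (edgeR adjusted p = 0.682 and 0.896). Of its windows 9.39% also occurred in other genes, among them Gm6055, which had 0.224 to 0.729 CPM.

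Gabarap encodes the founding member of the GABARAP branch. It measured 166, 162, 163 and 157 CPM under anti-miR-409-5p and 164, 162, 164 and 159 CPM under anti-miR-501-3p, against 179.7 and 176 CPM in control. All 8 anti-miR libraries lay below both controls. Gabarap had a log2 fold change of -0.13 in both comparisons (SE 0.037 in both), with an edgeR adjusted p of 0.0123 under anti-miR-409-5p and 0.0130 under anti-miR-501-3p. Without control replicate 1 the edgeR adjusted p was 0.199 and 0.205, and in the GC-adjusted fit the log2 fold change was -0.031 and -0.028 (edgeR adjusted p = 0.646 in both).

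Gabarapl1 encodes GABARAPL1, also known as GEC1, a family member abundant in the brain. Its levels were 377, 382, 388 and 362 CPM under anti-miR-409-5p and 378, 394, 385 and 375 CPM under anti-miR-501-3p, against 374 and 384 CPM in control. These ranges overlapped. Its log2 fold change was -0.0065 (95% interval -0.085 to 0.072, edgeR adjusted p = 0.921) under anti-miR-409-5p and 0.015 (-0.064 to 0.094, edgeR adjusted p = 0.806) under anti-miR-501-3p. Gabarapl1 was the only core gene that passed in both GC-adjusted comparisons, as higher, at 0.13 (SE 0.033, edgeR adjusted p = 0.0180) under anti-miR-409-5p and 0.15 (SE 0.033, edgeR adjusted p = 0.0039) under anti-miR-501-3p. Without control replicate 1 neither passed (edgeR adjusted p = 0.337 and 0.178), and without anti-miR-409-5p replicate 3 the first did not (0.0672). Of its windows 18.6% were shared with the antisense gene 1700101I11Rik, at 1.53 to 2.54 CPM.

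Gabarapl2 encodes GATE-16, a member named for its role in Golgi transport. It had 26.6, 27.99, 29.3 and 27.3 CPM under anti-miR-409-5p and 27.9998, 31.9, 30.1 and 27.4 CPM under anti-miR-501-3p, against 24.3 and 25.5 CPM in control. All anti-miR libraries were above both controls. The log2 fold change of 0.24 (SE 0.066) passed under anti-miR-501-3p (edgeR adjusted p = 0.0106), and that of 0.16 (SE 0.066) did not in anti-miR-409-5p libraries (edgeR adjusted p = 0.0873). Between the anti-miRs the difference was -0.080 (95% interval -0.19 to 0.032, edgeR adjusted p = 0.872), so the responses were not shown to differ. The call was lost without control replicate 1 (edgeR adjusted p = 0.124) and in the GC-adjusted fit (0.16, edgeR adjusted p = 0.100). With a replicate block the change under anti-miR-409-5p passed too (0.16, edgeR adjusted p = 0.0366). Of its windows 17.0% also occurred in 4 other genes, led by Gm3724, which had at most 0.134 CPM.

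Sqstm1 encodes p62, the receptor that carries ubiquitinated cargo into the autophagosome. It measured 336, 329, 324 and 315 CPM in anti-miR-409-5p libraries and 328, 315, 323 and 313 CPM in anti-miR-501-3p libraries, against 377 and 359 CPM in control replicates 1 and 2. The groups did not overlap, and the gap between the highest anti-miR library and the lower control was wider than the gap between the controls. Its fall amounted to a log2 fold change of -0.18 (SE 0.038, edgeR adjusted p = 0.0027) under anti-miR-409-5p and -0.20 (SE 0.038, edgeR adjusted p = 6.9e-04) under anti-miR-501-3p. The difference between the anti-miRs was 0.027 (95% interval -0.039 to 0.093, edgeR adjusted p = 0.924). Without control replicate 1 the edgeR adjusted p was 0.122 and 0.0521. After GC adjustment the log2 fold change was -0.059 (edgeR adjusted p = 0.235) and -0.076 (edgeR adjusted p = 0.0822). With a replicate block in that fit, the value under anti-miR-501-3p passed (-0.078, edgeR adjusted p = 0.0473). Of its windows 20.4% were shared with the antisense gene Mrnip, at 4.10 to 5.85 CPM.

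**Figure D2:**
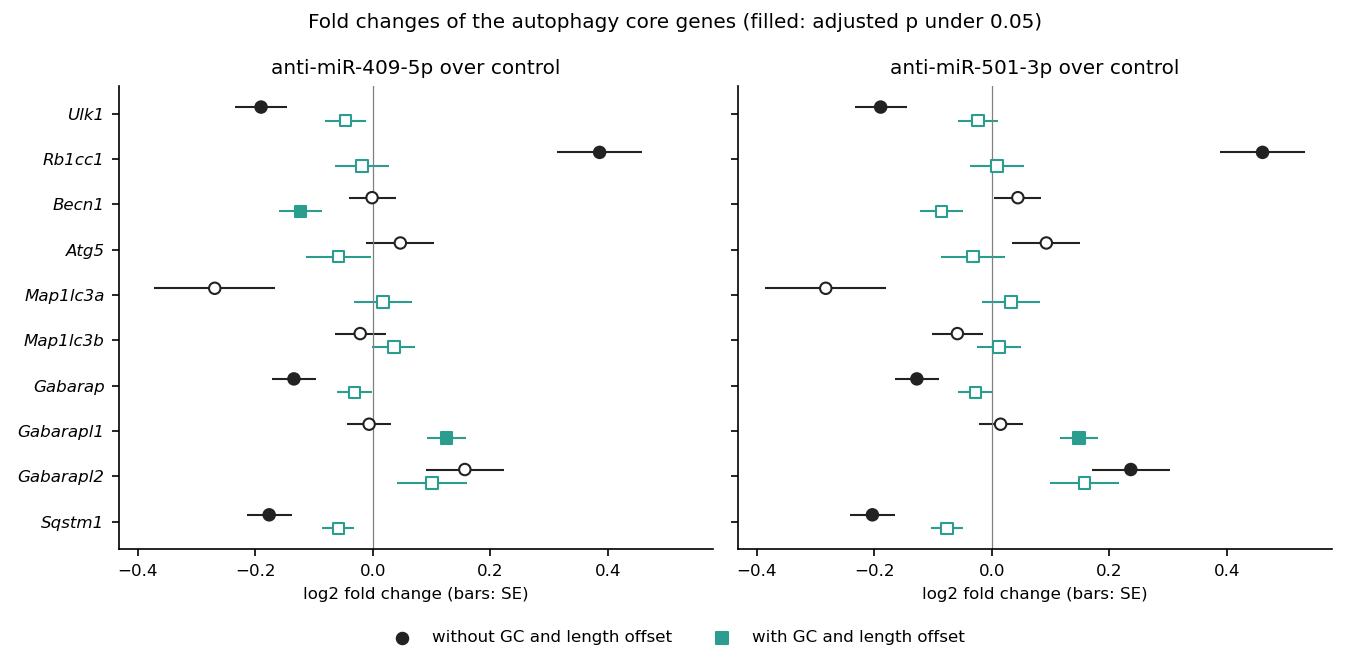
Log2 fold change of each core gene over control, with SE, under anti-miR-409-5p on the left and anti-miR-501-3p on the right. Circles are the fit without and squares the fit with the GC and length offset, and filled symbols have an edgeR adjusted p under 0.05. The 0.39 and 0.46 of Rb1cc1 become -0.019 and 0.0088, and Gabarapl1 moves to 0.13 and 0.15.

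The core genes ranked by fold change much as they ranked by GC content. Rb1cc1, with the lowest GC content (39.1%), had the highest fold change in both comparisons, and Map1lc3a, with the highest (63.1%), had the lowest. Among 1058 genes within 2 points of the GC content of Rb1cc1, the median log2 fold change was 0.35 under anti-miR-409-5p and 0.40 under anti-miR-501-3p, beside 0.39 and 0.46 for Rb1cc1 itself. Among 1699 genes near Ulk1 (58.0%) the medians were -0.17 and -0.19, beside -0.19 and -0.19 for Ulk1. Sqstm1 (54.0%) lay lower than its 2512 neighbours, whose medians were -0.11 and -0.13, but 22.9% and 21.1% of these neighbours lay lower still. Gabarap (50.8%) had 20% and 24.2% of 2617 neighbours below it. Gabarapl1 (52.7%) lay above 82.4% and 87.3% of 2579 neighbours, whose medians were -0.090 and -0.10. Becn1 (45.0%) lay above 19.6% and 28.8% of 2550 neighbours, whose medians were 0.12 and 0.13. In the GC-adjusted fit 2 of 10 core genes passed under anti-miR-409-5p (Gabarapl1 higher, Becn1 lower; 7.46% of all tested genes) and 1 of 10 under anti-miR-501-3p (Gabarapl1 higher; 10.2%). A trend on GC content can hold differences that belong to the cells as well as ones from library preparation, and these cannot be told apart here.

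**Figure D3:**
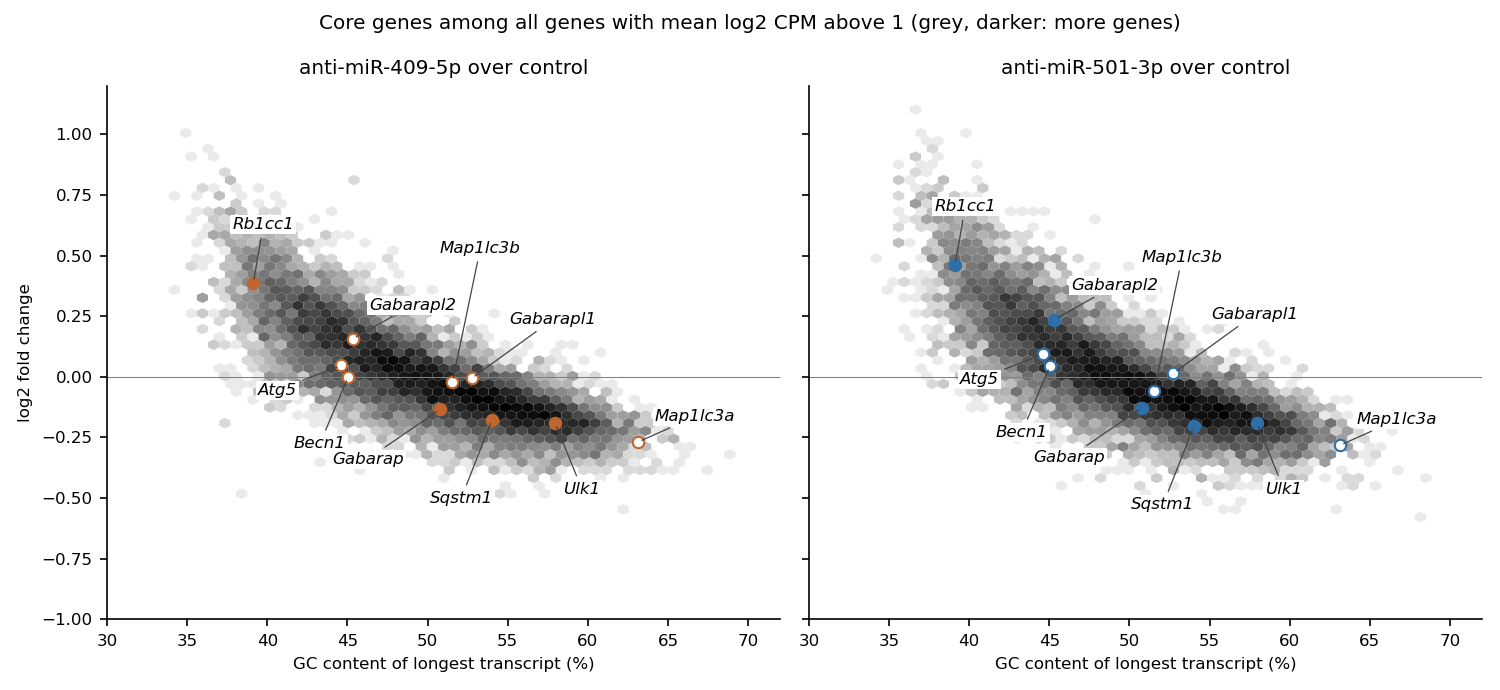
Log2 fold change over control against GC content of the longest annotated transcript, for all genes with a mean log2 CPM above 1 (grey, darker where genes are denser) and the 10 core genes (circles, filled where the edgeR adjusted p is under 0.05). The core genes lie within the falling band of all genes, from Rb1cc1 at 39.1% GC to Map1lc3a at 63.1% GC.

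Set against each other, the anti-miRs differed in 0 of 10 core genes, and edgeR called 0% of all tested genes. An unadjusted p under 0.05 was found for 992 genes (5.88%), of which 0 were core genes, and DESeq2 called 3 genes (0.0178%). Log2 differences of the core genes (the first anti-miR minus the second) ran between -0.080 for Gabarapl2 and 0.037 for Map1lc3b, with CPM ranges that overlapped for all 10 (3.47% of all tested genes did not overlap). With the GC-adjusted fit 0 core genes and 0.00592% of all tested genes were called. With the replicate number as a block edgeR called 252 genes (1.49%), of which 0 were core genes and 1 was among the other pathway genes described below. Against control the block gave 6 of 10 core genes under each anti-miR (28.9% and 33.9% of all tested genes). The narrowest interval was that of Gabarap, from -0.071 to 0.057, and the widest that of Map1lc3a, from -0.18 to 0.21. For Rb1cc1 the difference was -0.075 (-0.20 to 0.049) and for Ulk1 -0.00094 (-0.078 to 0.076). These intervals come from the fit without block, which leaves out a possible pairing of same-numbered libraries. Differences inside the intervals were not excluded with 4 libraries a group.

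Of the genes with a mean log2 CPM of at least 1, those whose log2 CPM followed a core gene most closely over the 10 libraries were Zfp518a for Rb1cc1 (Pearson r = 0.991), Tmem160 for Map1lc3a (0.990), Grina for Sqstm1 (0.990) and Eri3 for Ulk1 (0.989). For Ulk1 the next was Atg4b (0.985), which encodes a protease that processes LC3 and GABARAP proteins. The closest were Coro7 for Gabarap (0.980), Nrsn1 for Gabarapl2 (0.969), Fam241b for Gabarapl1 (0.958), Erlin1 for Atg5 (0.944), Thbs1 for Becn1 (0.943) and Gm5468 for Map1lc3b (0.935). These are descriptions over 12831 genes, and the libraries share their 3 groups and their GC slopes. Among the core genes themselves, Gabarap and Sqstm1 ran together most closely (r = 0.965, and 0.896 after removal of group means). Rb1cc1 ran opposite to Sqstm1 (r = -0.951, and -0.730 after removal of group means).

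The other genes of the pathway were described in 9 lists by role, with 89 genes in all, each of them tested. Under anti-miR-409-5p 17 rose and 19 fell, where 15.6% of all tested genes rose and 12.2% fell. Under anti-miR-501-3p 20 rose and 21 fell, where 17.6% and 15.4% did. The lists below hold few genes each, and their counts are read only beside these shares. The median log2 fold change of the 89 genes was -0.029 and -0.021. In the GC-adjusted fit 7 passed as higher and 6 as lower for anti-miR-409-5p (background 3.99% and 3.47%), and 9 and 6 for anti-miR-501-3p (5.51% and 4.64%). Without control replicate 1, 9 and 12 genes of the 89 rose and 0 fell, where 6.5% and 8.77% of all tested genes rose and only 0.977% and 1.57% fell, so every fall named below lost its call there. Among the rises named below, those of Atg12 and Foxo1 in both comparisons and of Tmem41b and Gclm under anti-miR-409-5p were lost there too (edgeR adjusted p of the lost calls 0.0755 to 0.527). Calls of Atg101, Atg13, Nrbf2, Rubcn, Tmem41b, Atg4b, Vps18, Foxo1 and Tfeb were also lost without some other library (edgeR adjusted p 0.0506 to 0.185). A seed match for miR-409-5p was found in 10 of the 89 and one for miR-501-3p in 13, beside 10.5% and 13.6% of the 14225 tested protein-coding genes.

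Beside Ulk1 and Rb1cc1, the initiation complex holds 3 listed genes, and in both comparisons 1 rose and 2 fell. Ulk2, which encodes the kinase related to ULK1, moved opposite to Ulk1. It had 205 to 213 CPM under anti-miR-409-5p and 200.3 to 207 CPM under anti-miR-501-3p, against 177 to 180.3 CPM in control. Its log2 fold change was 0.22 (edgeR adjusted p = 3.4e-04) and 0.20 (edgeR adjusted p = 5.6e-04), and it passed in every alternative, at 0.14 (edgeR adjusted p = 0.0039) and 0.12 (edgeR adjusted p = 0.0102) in the GC-adjusted fit. Atg101 (-0.22 and -0.27, edgeR adjusted p = 0.0186 and 0.0041) and Atg13 (-0.14 and -0.13, edgeR adjusted p = 0.0378 and 0.0444), whose products join the kinase to FIP200, fell, and neither passed in the GC-adjusted fit. With a replicate block Atg13 passed in neither comparison (-0.11 and -0.10, edgeR adjusted p = 0.0515 and 0.0697).

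Of 8 nucleation genes 1 rose in both comparisons, and 2 fell under anti-miR-409-5p and 1 under anti-miR-501-3p. Sh3glb1, which encodes the membrane-bending Beclin 1 partner Bif-1, rose by 0.33 and 0.37 on the log2 scale (edgeR adjusted p = 4.1e-04 and 1.0e-04). It kept both calls in the GC-adjusted fit (0.13 and 0.16, edgeR adjusted p = 0.0246 and 0.0041). Nrbf2, a subunit of the lipid kinase complex, fell by 0.30 and 0.31 (edgeR adjusted p = 0.0309 and 0.0218) at only 4.67 to 4.95 and 4.31 to 4.92 CPM, against 5.69 to 5.98 CPM in control. Rubcn, an inhibitor of that complex, fell under anti-miR-409-5p (log2 fold change -0.15, edgeR adjusted p = 0.0262), while its value under anti-miR-501-3p was -0.11 (edgeR adjusted p = 0.0754). Neither gene passed in the GC-adjusted fit, with -0.28 and -0.30 for Nrbf2 (edgeR adjusted p = 0.106 and 0.0630) and, for anti-miR-409-5p, -0.054 for Rubcn (edgeR adjusted p = 0.481).

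Of 10 genes for membrane supply, which bring lipid and membrane to the growing autophagosome, 1 rose and 1 fell in both comparisons. Atg2a, a lipid transfer protein gene, fell by 0.29 and 0.28 (edgeR adjusted p = 0.0015 in both) and stayed lower in the GC-adjusted fit under anti-miR-409-5p (log2 fold change -0.14, edgeR adjusted p = 0.0427) but not under anti-miR-501-3p (-0.089, edgeR adjusted p = 0.195). With a replicate block in that fit, its call under anti-miR-409-5p was lost (-0.12, edgeR adjusted p = 0.0681). Tmem41b, a lipid scramblase gene, rose by 0.27 and 0.37 (edgeR adjusted p = 0.0158 and 0.0019), and with GC adjustment it had 0.047 and 0.11 (edgeR adjusted p = 0.777 and 0.323). Atg9a, which encodes the transmembrane protein of the seed vesicles, had -0.14 in both comparisons (edgeR adjusted p = 0.0565 and 0.0501).

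Of 10 genes of the conjugation machinery, in which Atg5 acts, 2 rose and 1 fell in both comparisons. The protease gene Atg4c rose by 0.32 and 0.31 (edgeR adjusted p = 0.0038 and 0.0029) and Atg12, the partner of Atg5, by 0.17 and 0.19 (edgeR adjusted p = 0.0090 and 0.0046). Atg4b fell by 0.15 and 0.14 (edgeR adjusted p = 0.0155 and 0.0220). Neither rise passed with GC adjustment, at 0.17 and 0.15 for Atg4c and 0.026 and 0.027 for Atg12 (edgeR adjusted p of 0.102 to 0.792). In the GC-adjusted fit Atg4b remained lower (-0.15 and -0.13, edgeR adjusted p = 0.0161 and 0.0342). There 3 genes of the list were lower and 0 higher in both comparisons, where 3.47% and 4.64% of all tested genes were lower. Beside Atg4b these were Atg3 (-0.26 and -0.33) and Atg16l1 (-0.14 and -0.15), named after their values were seen. With a replicate block in that fit, Atg4b did not pass under anti-miR-501-3p (-0.11, edgeR adjusted p = 0.0641).

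Of 18 cargo receptor genes other than Sqstm1, 5 rose and 3 fell under anti-miR-409-5p, and 7 rose and 3 fell under anti-miR-501-3p. The 3 genes of smallest p were receptors for endoplasmic reticulum and mitochondria and all rose, which does not hold for the whole list. Retreg1, which encodes the endoplasmic reticulum receptor FAM134B, had 45.2 to 48.7 CPM under anti-miR-409-5p and 45.96 to 53.4 CPM under anti-miR-501-3p, against 33.5 to 35.6 CPM in control. It rose by 0.43 and 0.50 (edgeR adjusted p = 9.1e-05 and 1.6e-05), and still by 0.32 and 0.38 in the GC-adjusted fit (edgeR adjusted p = 2.6e-04 and 3.0e-05). Bnip3l, the mitochondrial receptor also called NIX, rose by 0.36 and 0.46 (edgeR adjusted p = 3.9e-05 and 3.0e-06). Atl3, another endoplasmic reticulum receptor, rose by 0.36 and 0.42 (edgeR adjusted p = 4.1e-04 and 7.4e-05). With GC adjustment both kept their call with anti-miR-501-3p (0.20 and 0.16, edgeR adjusted p = 0.0025 and 0.0421) and not with anti-miR-409-5p (0.13 and 0.12, edgeR adjusted p = 0.0608 and 0.195). Other genes of the list were lower than in control. Tex264 had 71.5 to 80.8 and 72.3 to 83.0 CPM, against 86.4 to 88.6 CPM in control. Phb2 had 62.1 to 67.3 and 62.6 to 67.9 CPM, against 74.1 to 78.6 CPM.

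Of 14 genes for fusion with the lysosome, 0 rose and 3 fell under anti-miR-409-5p, and 1 rose and 4 fell under anti-miR-501-3p. Vps11 (-0.15 and -0.18, edgeR adjusted p = 0.0119 and 0.0034) and Vps18 (-0.16 and -0.25, edgeR adjusted p = 0.0373 and 0.0024), subunits of the tethering complexes, fell. So did Tecpr1 (-0.19 and -0.20, edgeR adjusted p = 0.0124 and 0.0062), which binds ATG5 on autophagosomes. None of these 3 passed in the GC-adjusted fit.

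Of 12 genes for nutrient control, 3 rose and 5 fell under anti-miR-409-5p (15.6% and 12.2% of all tested genes). Under anti-miR-501-3p 3 rose and 6 fell (17.6% and 15.4%). Prkaa1 and Prkaa2 encode the catalytic subunits of AMPK, which activates ULK1. They rose by 0.35 and 0.30 with anti-miR-409-5p (edgeR adjusted p = 2.4e-04 and 3.7e-04) and by 0.40 and 0.33 with anti-miR-501-3p (edgeR adjusted p = 4.9e-05 and 8.3e-05). Rptor, which encodes the mTORC1 scaffold Raptor, fell by 0.20 and 0.21 (edgeR adjusted p = 0.0034 and 0.0016). In the GC-adjusted fit 0 of the 12 genes passed in either comparison, where only 7.46% and 10.2% of all tested genes did. Prkaa2 had -0.032 and -0.022 in that fit.

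Of 7 genes for transcription factors of the pathway and Bcl2, 3 rose and 0 fell under anti-miR-409-5p, and 3 rose and 1 fell under anti-miR-501-3p. Bcl2, whose product binds and restrains Beclin 1, had 14.5 to 18.3 and 15.2 to 16.4 CPM, against 12.3 CPM in both controls. It rose by 0.43 and 0.38 (edgeR adjusted p = 0.0014 and 0.0028), and by 0.31 and 0.26 in the GC-adjusted fit (edgeR adjusted p = 0.0138 and 0.0352). With a replicate block in that fit, Bcl2 did not pass under anti-miR-501-3p (0.24, edgeR adjusted p = 0.0521). Foxo1 rose by 0.23 and 0.20 (edgeR adjusted p = 0.0136 and 0.0227), and with GC adjustment it did not pass (0.17 and 0.15, edgeR adjusted p = 0.1099 and 0.129). Tfeb, the main activator of lysosomal genes, fell under anti-miR-501-3p (-0.45, edgeR adjusted p = 0.0196), while its value under anti-miR-409-5p was -0.38 (edgeR adjusted p = 0.0503), at levels of 2.44 to 4.13 CPM over all libraries. In the GC-adjusted fit the anti-miR-501-3p value of Tfeb was -0.17 (edgeR adjusted p = 0.523).

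Of 7 genes for partners of p62 and targets of NRF2, the stress factor that p62 releases by binding KEAP1, 1 rose and 2 fell in both comparisons. Gclm, which encodes a subunit of the enzyme that starts glutathione synthesis, rose by 0.34 and 0.46 (edgeR adjusted p = 0.0081 and 8.3e-04). The heme oxygenase gene Hmox1 fell by 0.28 and 0.24 (edgeR adjusted p = 0.0046 and 0.0102), and Keap1 fell by 0.23 and 0.22 (edgeR adjusted p = 0.0059 and 0.0062). With GC adjustment only Gclm under anti-miR-501-3p passed among these 3 (0.20, edgeR adjusted p = 0.0271).

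**Figure D4:**
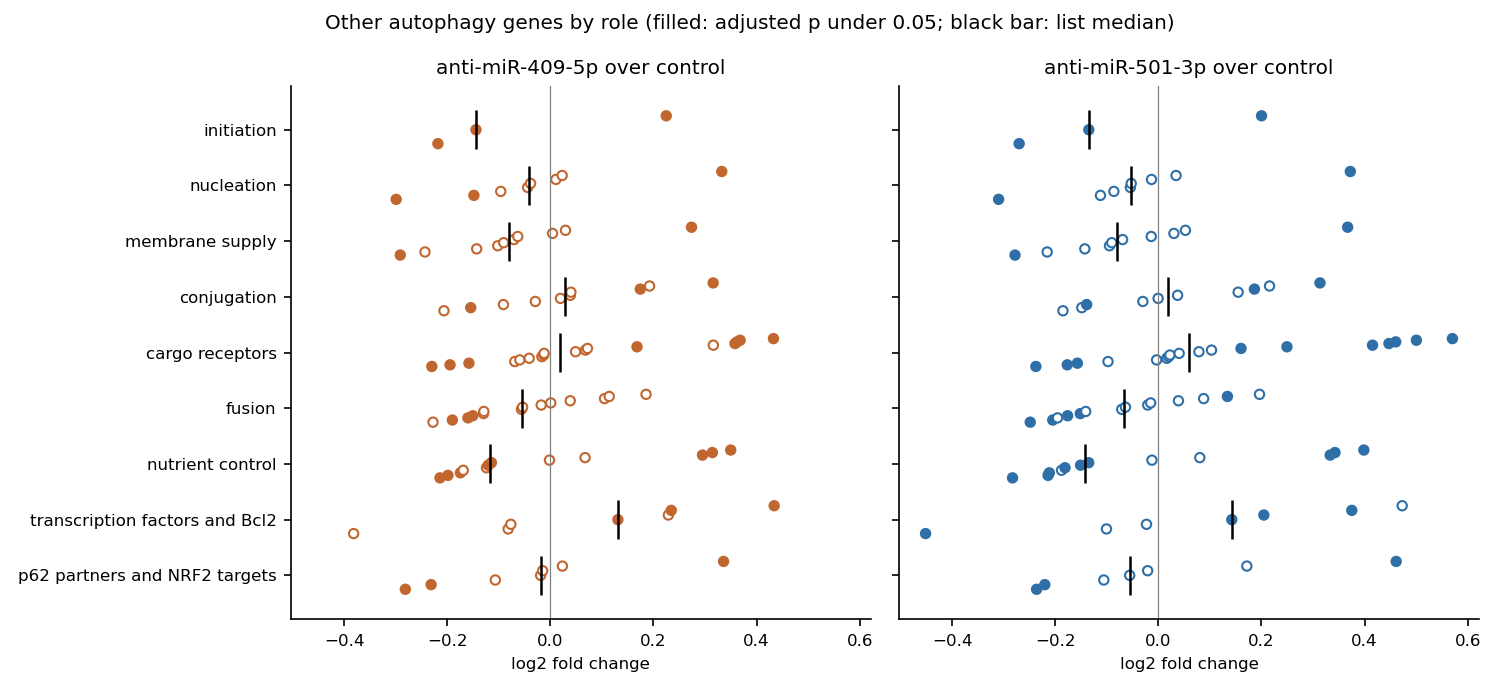
Log2 fold change of the 89 other autophagy genes over control, in 9 lists by role, with anti-miR-409-5p on the left and anti-miR-501-3p on the right. Each circle is a gene, filled where the edgeR adjusted p is under 0.05, and the black bar is the list's median, between -0.14 and 0.14 in all lists.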

How the data were processed

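Per the labels' protocols, single-end reads of 50 bases came from TruSeq RNA v2 libraries, a kit that does not mark strand. Build mm10 and the tools STAR 2.5.2b, Subread 1.5.1, featureCounts and FastQC 0.11.5 are named in the submitters' processing notes. Annotation release, strand setting and treatment of multi-mapping reads are not given in the sources used here. The authors deposited raw counts per gene and library. For each anti-miR they also deposited a table of log2 fold changes, p-values and adjusted p-values over control, and a normalized signal per library that equals the counts divided by a single factor, per the file headers and values. Those tables served only for comparison of calls.

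From the counts, edgeR 4.0.16 (R 4.3.3) was run over all 10 libraries and 3 groups, with filterByExpr, TMM scaling, a robust two-sided quasi-likelihood test and Benjamini-Hochberg adjustment over 16884 genes at 0.05. The prior count for log2 CPM was 2. Intervals are at 95%. Names were matched for 48349 of 48709 genes, and coordinates, GC content of the longest transcript and 3′ UTRs came from the mm10 annotation. For the GC-adjusted fit, each library's trend on GC content and log length (splines of 5 degrees of freedom, fitted on genes with mean log2 CPM above 1, values for 99.7% of genes) entered as an offset. Tools were tested on simulated data. Deviations from group means of same-numbered libraries correlated at 0.121 to 0.375 in the 4 pairs of anti-miR libraries, which may therefore be paired. The labels tie the numbers to no culture. Anti-miR-409-5p replicate 3 correlated more with anti-miR-501-3p replicate 4 (0.177) than with its replicate 3 (0.121). With control, deviations of same-numbered libraries correlated at 0.042 to 0.359. Pairing was not established in either case, and the fit without block is given throughout. Blocked values are given where the block without offset changes a call of a core gene or a named pathway gene.

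All core genes are named, with 3 genes of smallest p per pathway list over both comparisons with control and up to 2 genes of most similar profile per core gene. The core genes, lists, markers and the GC adjustment were chosen with earlier results of these data known. Alternatives were DESeq2 1.42.0 and its size factors, other scalings, no filter, fits of 2 groups, a replicate block, and leaving out each library.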

Additional observations from a re-analysis of the deposited data

Results flagged for a closer look

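The Rb1cc1 level of anti-miR-409-5p replicate 4, 103 CPM, lay apart from those of the other 3 libraries of its group, which were between 95.4 and 96.2 CPM. The gap was 0.908 of the group's whole range. It was the only such value among 20 groups of 4 libraries examined (10 core genes under each anti-miR), and chance flags about 1 in 20. Without this library Rb1cc1 still passed against control.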

How the results depend on the processing

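Under DESeq2 (test or size factors), other scalings, no filter, the replicate block and fits of 2 groups, counts of core and pathway genes called against control stayed within 1.5 times. Calls of single pathway genes changed. DESeq2's test lost both calls of Atg13 (adjusted p = 0.0620 and 0.0793) and Nrbf2 (0.101 and 0.0838). It also lost Vps18 under anti-miR-409-5p (0.0592) and Tfeb under anti-miR-501-3p (0.0523). Without the filter Atg13 and Nrbf2 were lost in both comparisons, while Atg9a passed in both. With upper-quartile and total-count scaling Atg9a passed in both comparisons, Tfeb under anti-miR-409-5p and Rubcn under anti-miR-501-3p. Foxo1 was lost under anti-miR-501-3p with total-count scaling (edgeR adjusted p = 0.0551). Atg13 was lost under anti-miR-501-3p with DESeq2 size factors and under anti-miR-409-5p in the fit of 2 groups (edgeR adjusted p = 0.0553 and 0.0635). Between the anti-miRs, 1 pathway gene instead of 0 was called by DESeq2, without the filter, and with the block, alone or with the GC and length offset. Map1lc3a passed with DESeq2, in fits of 2 groups and with the block in both comparisons, and with upper-quartile and total-count scaling under anti-miR-501-3p. These scalings shifted all-gene splits to 2233 higher and 3074 lower (upper quartile) or 2193 and 3209 (total count) under anti-miR-409-5p, and to 2540 and 3607 or 2452 and 3779 under anti-miR-501-3p, beside 2634 and 2062, and 2974 and 2605, with TMM.

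With the GC and length offset, core genes called were 2 (anti-miR-409-5p) and 1 (anti-miR-501-3p), and pathway genes 13 and 15. With block and offset together these were 1 and 2, and 14 and 14, where 1303 and 1830 of all 16884 tested genes were called. Signs turned with the offset under anti-miR-409-5p for Rb1cc1 (-0.019), Atg5 (-0.059), Map1lc3a (0.017), Map1lc3b (0.036), Gabarapl1 (0.13), Atg101 (0.0049), Vps18 (3.9e-04) and Prkaa2 (-0.032). Under anti-miR-501-3p they turned for Becn1 (-0.086), Atg5 (-0.032), Map1lc3a (0.033), Map1lc3b (0.012), Rubcn (1.7e-04), Atg9a (0.0024) and Prkaa2 (-0.022), and between the anti-miRs for Map1lc3a (-0.016). With block and offset the turned values were -0.019 (Rb1cc1), -0.060 (Atg5), 0.068 (Map1lc3a), 0.046 (Map1lc3b), 0.12 (Gabarapl1), 0.021 (Atg101), 0.027 (Atg9a) and 0.0080 (Vps18) under anti-miR-409-5p. They were -0.075 (Becn1), -0.035 (Atg5), 0.082 (Map1lc3a), 0.022 (Map1lc3b), 0.0087 (Rubcn) and 0.042 (Atg9a) under anti-miR-501-3p, and -0.015 (Map1lc3a) between the anti-miRs.

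Other turned signs were of values near 0. Under anti-miR-409-5p Becn1 had 0.0060 with DESeq2 size factors, 0.0055 with DESeq2 and 0.0040 without the filter, and Gabarapl1 had 9.6e-04, 7.5e-04 and, with the block, 0.0038. Under anti-miR-501-3p Gabarapl1 had -0.027 and -0.034 with upper-quartile and total-count scaling, and Becn1 -0.0050 with the latter scaling. Between the anti-miRs Ulk1 had 3.3e-04, 7.6e-04, 0.0038, 6.2e-04, 0.0015 and 2.5e-04 with DESeq2 size factors, upper quartile, total count, DESeq2, no filter and 2 groups.

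Leaving out each library gave 1 to 5 and 1 to 6 core genes called under anti-miR-409-5p and under anti-miR-501-3p, and 9 to 40 and 12 to 43 pathway genes, all lowest without control replicate 1, where all-gene calls were 1302 and 1800 instead of 4696 and 5579. The highest all-gene calls with a library left out were 5111 and 6075. With the offset (1259 and 1714 all-gene calls), 0 to 2 core genes were called in both, an alternative added after the data were seen. Ranges that crossed 0 were -0.010 to 0.020 (Becn1) and -0.013 to 0.020 (Gabarapl1) under anti-miR-409-5p. Between the anti-miRs they were -0.025 to 0.023 (Ulk1), -0.050 to 0.071 (Map1lc3a) and -0.017 to 0.0081 (Gabarap). The cause of these changes was not tested. The replicate block called 4887 and 5729 genes against control and 252 between the anti-miRs, where it changed no call of a core gene. Same-numbered libraries correlated at a median of 0.252 and others at -0.068, but not every library correlated best with its own number. Control rests on 2 libraries, which limits all comparisons with it, and at these depths 3 counts correspond to 0.0951 to 0.136 CPM.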
